A study of Homo sapiens with 12 samples.

Results

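The genes described here are 52 human genes of G2 and mitosis, from the cyclins that start cell division to the motors, checkpoint proteins and chromosome scaffolds that carry it out. They were chosen by name, as 52 of the 25680 gene symbols in the tables, and all 52 passed the filter on low counts. No measured value entered the rule, but earlier results of these data were known when the genes were chosen. Messenger RNA was sequenced in U266 and MM.1S, established cell lines from human multiple myeloma, a cancer of plasma cells. Each line was kept for 6 h with 6 µM IT848, a compound that the series description calls an inhibitor of NF-kB, or with DMSO, the solvent. There were 4 groups (U266 with DMSO, U266 with IT848, MM.1S with DMSO, MM.1S with IT848) of 3 libraries each, and cells of all groups grew in RPMI with 20% FBS. Each line stands for 1 tumour, and nothing in the labels tells if libraries of 1 group were separate cultures, so p-values measure the spread between these libraries, which may be technical.

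As background, entry into mitosis is driven by the kinase CDK1 bound to cyclin B, which the CDC25 phosphatases switch on, and exit follows when the anaphase-promoting complex marks cyclin B and securin for breakdown. Transcripts of these genes build up late in the cell cycle under FOXM1, B-MYB and the MuvB complex, which binds a promoter element called CHR, often close to CCAAT boxes bound by NF-Y. In quiescent and early cycling cells the DREAM complex keeps the same promoters off. Proliferation signatures rich in such genes are a familiar mark of aggressive myeloma.

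Library totals were 50627690 to 72039748 transcript counts, or 22887470 to 32913398 with 1 transcript per gene. The least counted member in any library, UBE2C, had 187 counts summed over its 8 transcripts. These transcripts share reads, and the most counted of them had 25 counts in its lowest library. Member counts made up 0.872 to 1.08% of the total of a library. The plasma cell markers were present, with all 10 tested, and the marks of U266 (CCND1 and IL6) summed to 387 to 513 CPM (counts scaled to library size) in U266 libraries and 2.86 to 6.31 CPM in MM.1S libraries. Markers of other cells (erythroid, epithelial, stromal, myeloid, T and NK) summed to at most 43.6 CPM per list, and no listed gene was at 0 in all libraries. The stromal sum was 15.9 to 20.4 CPM in MM.1S with DMSO and 23.4 to 29.6 CPM with IT848, where 3 of its 6 genes rose, and the erythroid sum was 2.19 to 2.28 and 4.22 to 5.43 CPM. Their part in the results was not tested. A pair of libraries held reads of the other line. U266 IT848 replicate 1 had 0.681% of the MM.1S level over 4 genes that U266 lacks, and MM.1S DMSO replicate 2 had 0.489% of the U266 level over 18 genes that MM.1S lacks. The genes were chosen at 20 CPM or more in the DMSO mean of the other line. They also had at most 1 count in each U266 DMSO library, or in MM.1S DMSO replicates 1 and 3. Those libraries were thus near 0 by choice, while MM.1S DMSO replicate 2 was not used to choose. The other IT848 libraries, not used to choose either, had 0.0431 to 0.12%. Counts without both libraries stand beside the counts of members below.

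With IT848 many of the 52 genes rose by a small amount in MM.1S, and none was called in U266 in the fit on 12 libraries. In U266 the median log2 fold change over the 52 was -0.02, against 0.01 over all genes tested. In MM.1S 23 members rose and 5 fell, with a median of 0.11 against -0.01 over all genes. Set against the mean of the MM.1S controls, the median over the 52 genes was 0.04, 0.14 and 0.17 in IT848 replicates 1, 2 and 3 and -0.04, -0.02 and 0.04 in the DMSO replicates. IT848 replicate 1, with 34 members above that mean, thus stood at the level of DMSO replicate 3, with 44. Cyclin B1 (CCNB1) rose most, by 0.54 on the log2 scale, and the proliferation marker MKI67 fell most, by 0.37. In bulk libraries a change in the share of cells in G2 or mitosis and a change in RNA per cell cannot be told apart.

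**Figure D1:**
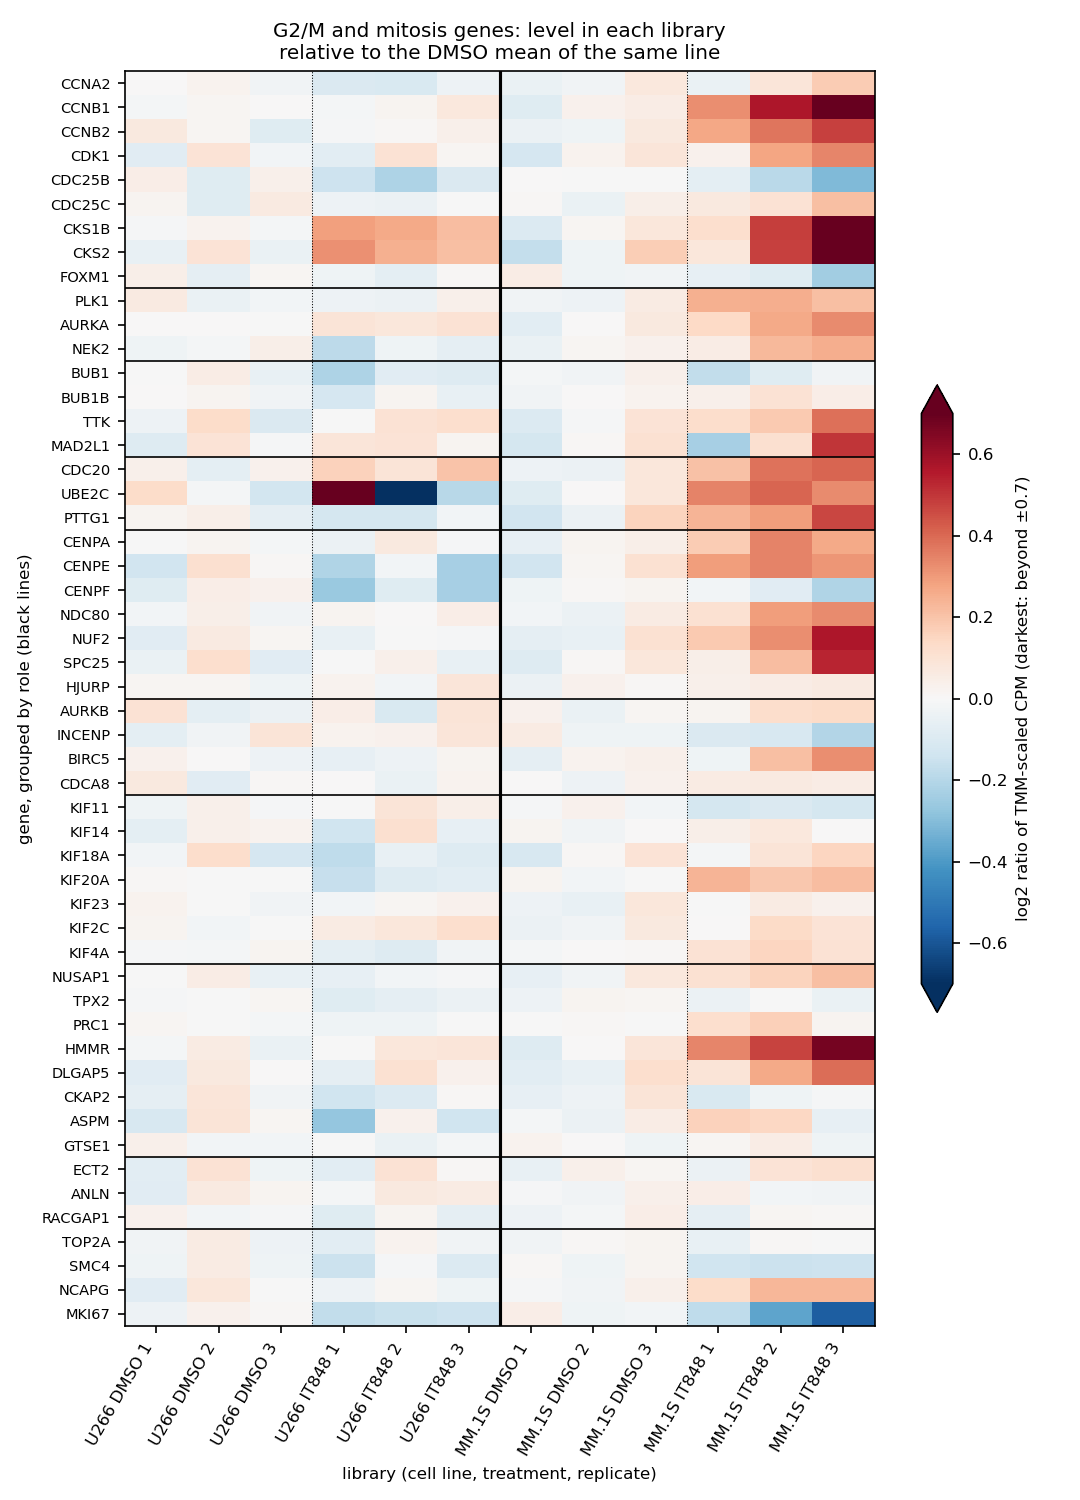
Heat map of the 52 genes (rows, grouped by role between black lines) in the 12 libraries (columns), coloured by the log2 ratio of TMM-scaled CPM to the DMSO mean of the same line. The MM.1S IT848 columns are red for most genes of mitotic entry, kinases, kinetochore and spindle and blue for MKI67, CDC25B and SMC4, whereas the U266 IT848 columns are pale for all but a few genes, UBE2C among them.

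The test was edgeR's quasi-likelihood test on all 12 libraries, with Benjamini-Hochberg adjustment over 16782 genes and a call at an adjusted p below 0.05. In U266 this called 9.01% of all genes (4.03% higher, 4.98% lower) and 0 of 52 members. At an unadjusted p below 0.05, which 20.8% of all genes reached, 7 members passed: CDC25B, CKS1B, BUB1, CDC20, CENPF, KIF20A and MKI67. DESeq2 called 2 members, where 802 of all 16782 genes were higher and 1195 lower. Without both libraries holding reads of the other line edgeR called 0. A fit on the 6 U266 libraries alone called 5, with CKS1B and CKS2 higher and CDC25B, CENPF and MKI67 lower. Of the 15609 genes in that fit, 956 were higher and 1117 lower. The U266 values ran from -0.19 ± 0.06 for CENPF, a kinetochore and matrix protein (edgeR adjusted p = 0.0522), to 0.26 ± 0.15 for CKS2. IT848 and DMSO libraries did not overlap for 14 members, with 5 higher (CKS1B, CKS2, AURKA, CDC20, KIF2C) and 9 lower, where 28.9% of all genes showed such a gap (14.3% higher, 14.6% lower). Over the alternatives tried, the call of CENPF changed most often, since it was lower in 11 of 21. Leaving out MM.1S IT848 replicate 1 or replicate 3 brought 4 U266 calls each. In those fits 767 of 17075 and 814 of 17093 genes were higher in U266, and 943 and 1013 lower.

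In MM.1S the same test called 38.3% of all genes, 18.7% as higher and 19.6% as lower. Of the 52 members 44.2% were higher and 9.62% lower. Libraries of both treatments did not overlap for 24 members with higher and 6 with lower values after IT848, a gap seen in 22.4% and 24.9% of all genes (47.2% in all). By role, those that rose were 5 of 9 genes of mitotic entry, 3 of 3 kinases of the spindle poles, 1 of 4 genes of the spindle checkpoint, 2 of 3 partners and substrates of the anaphase-promoting complex, 5 of 7 genes of centromere and kinetochore, 2 of 7 kinesins, 4 of 8 spindle proteins and 1 of 4 genes of chromosome structure. No gene of the chromosomal passenger complex (0 of 4) or of cytokinesis (0 of 3) rose. The 5 that fell were CDC25B, INCENP, KIF11, SMC4 and MKI67. Without MM.1S DMSO replicate 1 the counts of members were 14 higher and 3 lower, where 2508 and 2602 of 17062 genes were. Without both libraries holding reads of the other line they were 18 and 2, where 2699 and 2688 of 16927 genes were. The main fit called 3141 and 3289 of 16782 genes. Of the 23 rises 14 were called under each of the 21 alternatives, and of the 5 falls that of MKI67.

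**Figure D2:**
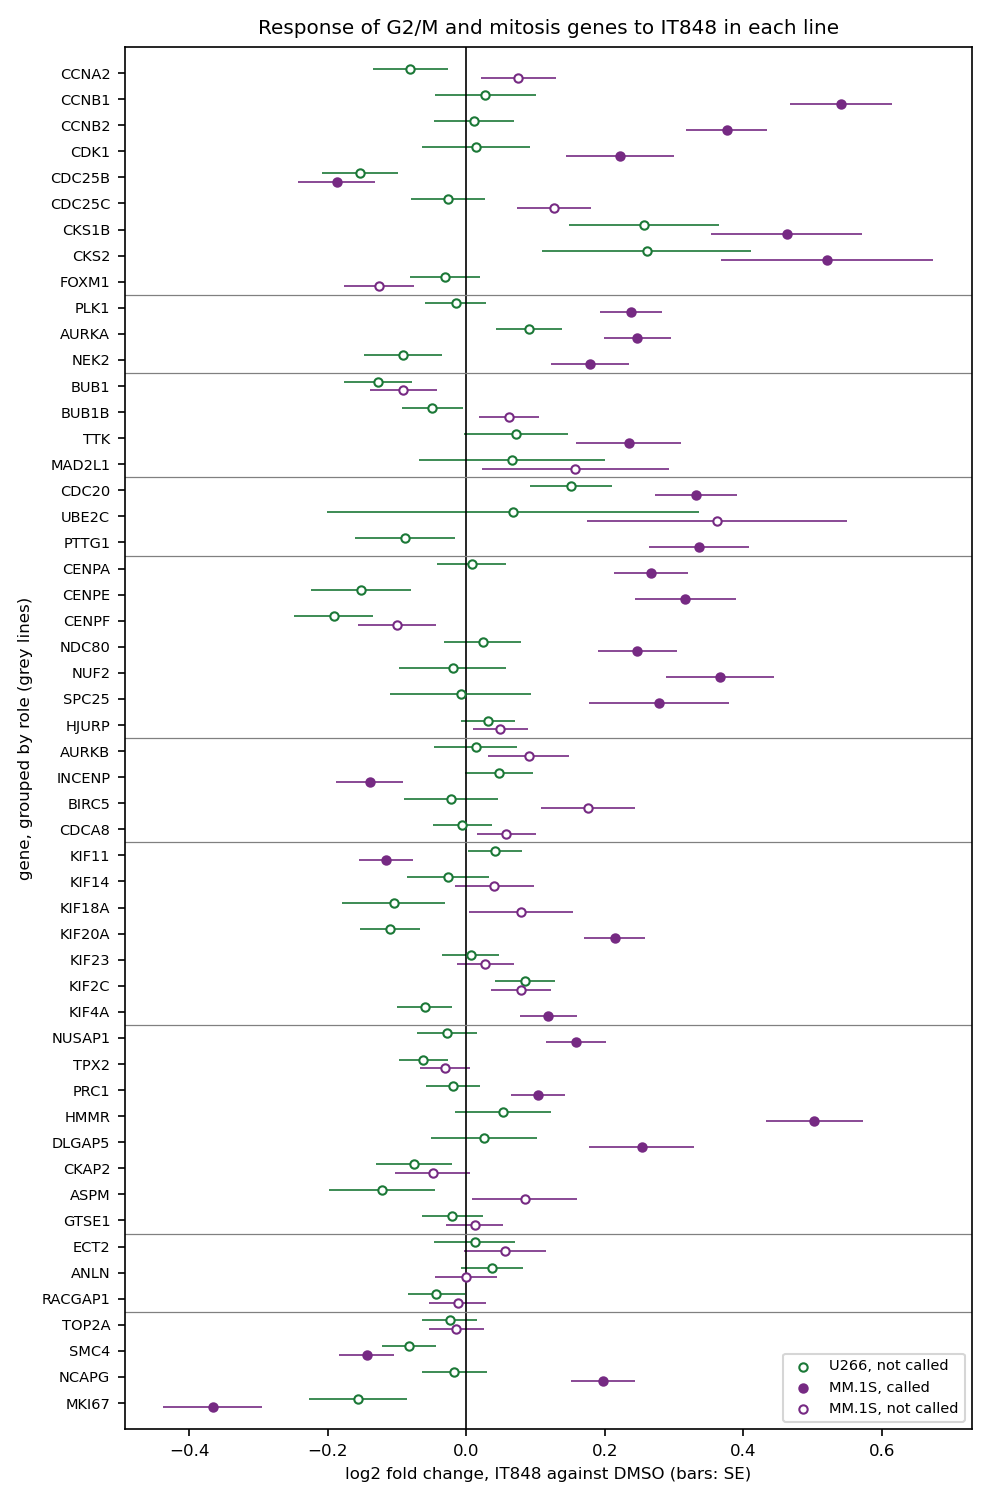
Log2 fold change of each of the 52 genes, IT848 against DMSO (x axis, bars are SE of the fit on 12 libraries), in U266 (green) and MM.1S (purple), with filled points for genes that passed the test. All U266 points are open and lie between -0.19 and 0.26, while 28 MM.1S points are filled, from MKI67 at -0.37 to CCNB1 at 0.54.

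Among the genes of mitotic entry, CCNB1 encodes cyclin B1, the partner that activates CDK1. Its level in U266 was 90.5, 92.2 and 91.5 CPM with DMSO and 90.6, 92.7 and 96.2 CPM with IT848. In MM.1S it was 69.7, 75.3 and 76.5 CPM with DMSO and 92.6, 109 and 121 CPM with IT848. All 3 treated MM.1S libraries lay above the controls, and the treated U266 libraries overlapped theirs. The log2 fold change was 0.54 ± 0.07 in MM.1S (edgeR adjusted p = 5.66e-05) and 0.03 ± 0.07 in U266 (edgeR adjusted p = 0.891).

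CCNB2, the second B-type cyclin, followed the same pattern at a lower level. Its U266 libraries held 56.5, 54.4 and 50.7 CPM with DMSO and 53.5, 54.1 and 55.3 CPM with IT848. The MM.1S libraries held 37.6, 37.8 and 40.5 CPM and 46.6, 50.03 and 53.7 CPM, again without overlap, a rise of 0.38 ± 0.06 (edgeR adjusted p = 0.00017). CDK1, the kinase itself, stood at 265, 299.8 and 278 CPM with DMSO and 267, 301 and 283 CPM with IT848 in U266. In MM.1S CDK1 was 219, 240.4 and 251 CPM and 242, 287 and 300.1 CPM. The lowest treated MM.1S library fell inside the control range, and the rise of 0.22 ± 0.08 (edgeR adjusted p = 0.0373) was called under 13 of 21 alternatives.

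CCNA2, cyclin A2, which acts from S phase until early mitosis, did not pass the test in either line. It was 108, 109.5 and 106 CPM with DMSO and 100.1, 100.1 and 105 CPM with IT848 in U266, and 95.9, 97.5 and 104 CPM and 96.1, 105 and 112 CPM in MM.1S. The treated U266 libraries were all below their controls and the treated MM.1S libraries spanned theirs, with log2 fold changes of -0.08 ± 0.05 and 0.08 ± 0.05. The neighbour EXOSC9 overlaps CCNA2, and without strand information reads of the overlap cannot be told apart.

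CKS1B and CKS2 encode the small subunits that bind CDK1 and help it find its substrates, and CKS1B lies in the 1q region that is often gained in myeloma. CKS1B was 122, 124 and 121 CPM with DMSO and 149, 147 and 142 CPM with IT848 in U266, and 89.96, 97.2 and 102 CPM and 104, 135 and 159 CPM in MM.1S. Treated libraries were above controls in both lines, by 0.46 ± 0.11 in MM.1S (edgeR adjusted p = 0.00509) and 0.26 ± 0.11 in U266, where the value did not pass (edgeR adjusted p = 0.193). That U266 call turned on the fit, since CKS1B passed with U266 libraries alone (edgeR adjusted p = 0.000338) and with the length trend described below taken out (edgeR adjusted p = 0.0282). CKS2 was 57.4, 63.5 and 57.6 CPM and 74.2, 70.8 and 68.8 CPM in U266, and 36.8, 40.5 and 46.6 CPM and 43.7, 57.6 and 76.7 CPM in MM.1S. With U266 libraries alone CKS2 passed as well (edgeR adjusted p = 0.00317). IT848 replicate 1 of MM.1S lay within the controls and replicate 3 far above them. The MM.1S rise in CKS2 of 0.52 ± 0.15 (edgeR adjusted p = 0.017) was 0.30 and no longer called without IT848 replicate 3.

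CDC25B, a phosphatase that activates CDK1, fell by 0.19 ± 0.06 in MM.1S and had -0.15 ± 0.06 in U266, where it did not pass. CDC25C, the phosphatase acting at the G2/M switch, had 0.13 ± 0.05 in MM.1S (edgeR adjusted p = 0.0776). FOXM1, the transcription factor of late cell cycle genes, was 205, 190.5 and 201 CPM with DMSO and 195, 189 and 200.1 CPM with IT848 in U266. In MM.1S it was 315, 298 and 298 CPM and 292, 286 and 257 CPM. Its treated MM.1S libraries lay just below the controls, and the value of -0.13 ± 0.05 did not pass (edgeR adjusted p = 0.0627). FOXM1 overlaps RHNO1, so part of its reads is uncertain.

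**Figure D3:**
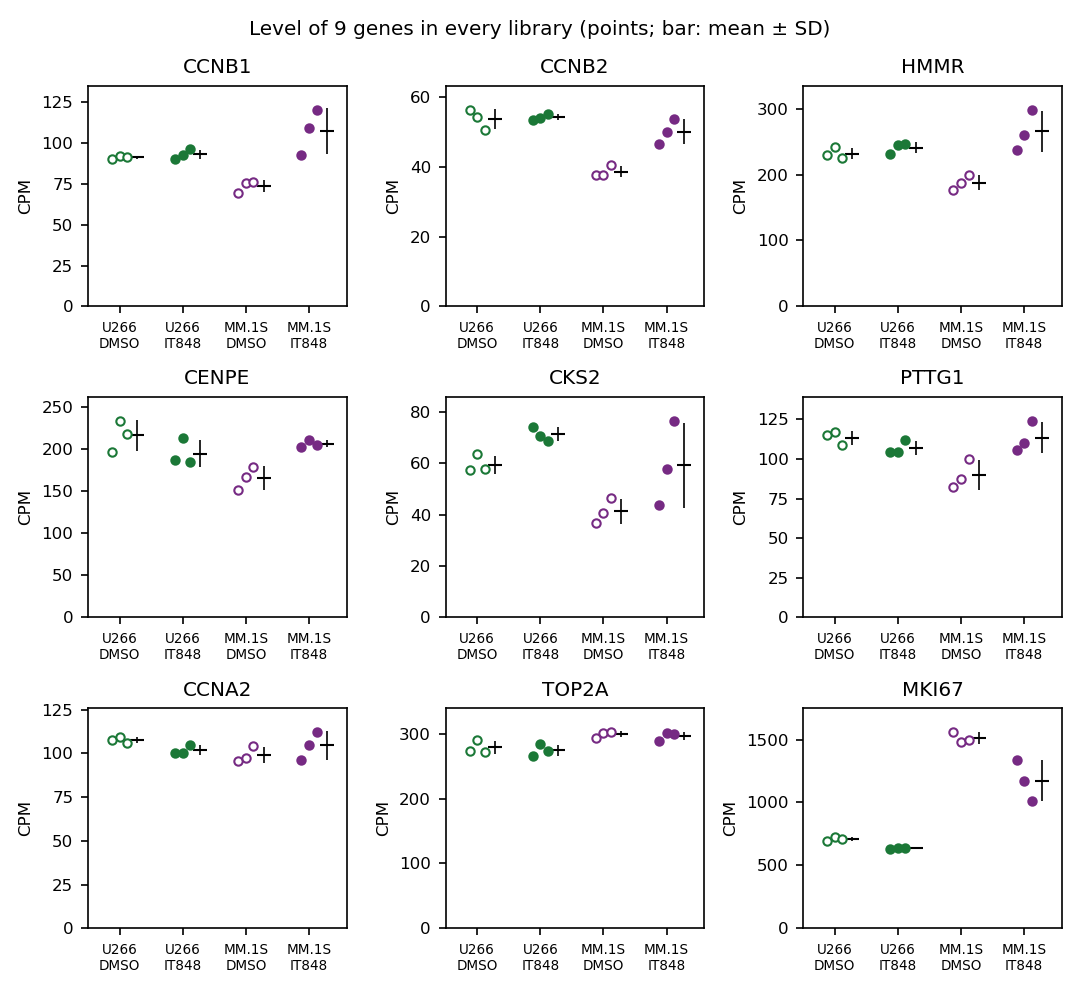
Level in CPM (y axis, from 0) of 9 genes in every library (points: U266 green, MM.1S purple, open for DMSO and filled for IT848; black bars are mean ± SD of 3 libraries). CCNB1, CCNB2, HMMR, CENPE and PTTG1 are higher in each treated MM.1S library than in its controls, MKI67 is lower, and CCNA2 and TOP2A overlap in MM.1S.

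Promoter sequences are shown for the genes above whose values differ most in kind: B-type cyclins and CKS2 that rose, the weaker rise of CDK1, CCNA2 that did not pass, and, for the roles that follow, PLK1, HMMR and CENPE that rose and MKI67 that fell. Each is the 170 bases before the transcript start in RefSeq (GRCh38.p14), 5′ to 3′ on the gene's strand. Capitals mark the CHR element, searched as TTTGAA or TTTAAA on both strands, and the CCAAT box, searched as CCAAT on both strands (TTCAAA and ATTGG where they lie on the other strand).
CCNB1 (chr5:69166980-69167149, plus strand): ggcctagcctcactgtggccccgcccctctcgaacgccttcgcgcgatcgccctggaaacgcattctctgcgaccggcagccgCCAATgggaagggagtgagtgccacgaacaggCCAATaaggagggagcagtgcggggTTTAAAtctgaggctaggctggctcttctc
CCNB2 (chr15:59104976-59105145, plus strand): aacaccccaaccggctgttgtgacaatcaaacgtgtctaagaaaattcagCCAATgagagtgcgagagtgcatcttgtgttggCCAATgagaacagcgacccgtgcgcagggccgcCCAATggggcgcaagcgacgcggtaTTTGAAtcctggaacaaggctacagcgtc
CKS2 (chr9:89311025-89311194, plus strand): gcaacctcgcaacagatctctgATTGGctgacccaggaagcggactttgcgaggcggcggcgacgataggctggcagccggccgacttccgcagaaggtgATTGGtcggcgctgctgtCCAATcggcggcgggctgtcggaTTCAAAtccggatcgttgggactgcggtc
CDK1 (chr10:60778161-60778330, plus strand): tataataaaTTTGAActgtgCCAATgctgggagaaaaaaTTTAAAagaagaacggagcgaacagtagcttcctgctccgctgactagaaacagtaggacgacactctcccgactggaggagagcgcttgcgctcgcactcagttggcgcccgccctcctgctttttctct
CCNA2 (chr4:121823884-121824053, minus strand): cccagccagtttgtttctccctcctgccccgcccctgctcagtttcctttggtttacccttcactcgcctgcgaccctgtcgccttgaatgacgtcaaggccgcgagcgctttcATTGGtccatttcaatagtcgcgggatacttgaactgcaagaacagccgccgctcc
PLK1 (chr16:23678719-23678888, plus strand): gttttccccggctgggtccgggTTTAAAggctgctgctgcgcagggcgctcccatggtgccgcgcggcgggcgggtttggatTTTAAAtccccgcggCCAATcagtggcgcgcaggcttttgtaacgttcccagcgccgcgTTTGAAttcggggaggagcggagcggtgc
HMMR (chr5:163460462-163460631, plus strand): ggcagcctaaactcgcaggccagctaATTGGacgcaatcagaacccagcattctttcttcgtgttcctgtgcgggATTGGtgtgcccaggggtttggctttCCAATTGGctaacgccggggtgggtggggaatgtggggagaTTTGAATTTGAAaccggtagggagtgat
CENPE (chr4:103198344-103198513, minus strand): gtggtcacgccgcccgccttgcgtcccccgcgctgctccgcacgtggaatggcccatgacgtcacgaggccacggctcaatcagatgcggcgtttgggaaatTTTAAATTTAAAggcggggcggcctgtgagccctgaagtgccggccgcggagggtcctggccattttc
MKI67 (chr10:128126424-128126593, minus strand): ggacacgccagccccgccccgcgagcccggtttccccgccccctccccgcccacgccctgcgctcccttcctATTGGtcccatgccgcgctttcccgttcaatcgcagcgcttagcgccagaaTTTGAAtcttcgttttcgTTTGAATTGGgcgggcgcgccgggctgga

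In CCNB1 the CHR letters begin at position -30 from the start, in CCNB2 and CKS2 at -29, in PLK1 at -148, -88 and -29, in HMMR at -28 and -22, and in MKI67 at -47 and -29, each with CCAAT letters in the same window. CDK1 carries them at -161 and -131, and CENPE at -68 and -62. In CCNA2 neither CHR spelling occurs in the 300 bases from 250 before to 50 after the start. Other spellings of the element were not searched, so this does not show that CCNA2 lacks a CHR. Promoters of 45 of the 52 members were in the table, all but TPX2, AURKA, TTK, FOXM1, UBE2C, RACGAP1 and BIRC5. Over those 300 bases CHR letters occurred in 38 of 45 members (84.4%), in 24% of 35116 promoters of the table, and in 4 of 40 (10%) DNA replication genes. CCAAT letters occurred in 34 of 45 members (75.6%), in 34.6% of all promoters and in 24 of 40 DNA replication genes (60%). Both stood together in 30 of 45 members (66.7%) and in 9.27% of all promoters. A CHR beginning between -40 and -10, a window chosen after the positions were seen, occurred in 20 of 45 members (44.4%) and in 3.37% of all promoters. By response in MM.1S, CHR letters were in 20 of 21 members that rose, 4 of 5 that fell and 14 of 19 that did not pass. These matches describe letters in a window and not bound sites.

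The 3 kinases of spindle poles and entry all rose in MM.1S. PLK1, polo-like kinase 1, which acts on CDC25C and at kinetochores, was 96.3, 89.3 and 90.97 CPM with DMSO and 89.8, 89.5 and 94.3 CPM with IT848 in U266. In MM.1S it was 74.8, 74.2 and 79.3 CPM and 90.5, 90.9 and 88.02 CPM, a rise of 0.24 ± 0.04 without overlap (edgeR adjusted p = 0.000758). AURKA, Aurora A, which activates PLK1 and matures the spindle poles, was 320.0, 319.8 and 319 CPM and 340.3, 338 and 343 CPM in U266, and 208, 219 and 230.0 CPM and 242, 263 and 276 CPM in MM.1S. Treated libraries of AURKA were above controls in both lines, by 0.25 ± 0.05 in MM.1S (edgeR adjusted p = 0.00107) and by 0.09 ± 0.05 in U266, which did not pass (edgeR adjusted p = 0.318). NEK2, the kinase that splits centrosomes, had 0.18 ± 0.06 in MM.1S and -0.09 ± 0.06 in U266.

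Of the spindle assembly checkpoint, which holds anaphase until all chromosomes are attached, TTK (the kinase MPS1) rose in MM.1S, by 0.23 ± 0.08. BUB1, BUB1B and MAD2L1 did not pass, with -0.09 ± 0.05, 0.06 ± 0.04 and 0.16 ± 0.14. The treated MM.1S libraries of MAD2L1, at 38.03, 48.2 and 63.1 CPM, were the most scattered of these and lay on both sides of its controls at 40.9, 44.8 and 48.1 CPM.

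The anaphase-promoting complex and its substrate gave rises for its activator and for securin. CDC20, the activator that the checkpoint inhibits, rose in MM.1S by 0.33 ± 0.06, against 0.15 ± 0.06 in U266. PTTG1, securin, which restrains the protease that cuts cohesin, was 115, 117 and 109 CPM with DMSO and 104, 104 and 112 CPM with IT848 in U266. In MM.1S PTTG1 was 82.1, 87.5 and 100.3 CPM and 106, 110.4 and 124 CPM. Its treated libraries were above the controls in MM.1S, 0.34 ± 0.07 (edgeR adjusted p = 0.00223), and overlapped them in U266, -0.09 ± 0.07. The near-identical copies PTTG2 and PTTG3P were at most at 0.0593 CPM. UBE2C, the E2 enzyme that starts ubiquitin chains for the complex, was 264, 279.9 and 296 CPM and 356, 370.5 and 352 CPM in MM.1S without overlap, but its value of 0.36 ± 0.19 did not pass (edgeR adjusted p = 0.157). In U266 UBE2C was 5.76, 5.20 and 4.82 CPM with DMSO and 8.75, 3.21 and 4.61 CPM with IT848, and the highest of these was replicate 1, the library that held MM.1S reads. Without that library the MM.1S rise was called, at 0.38 ± 0.08 (edgeR adjusted p = 0.00199), and likewise in a fit on MM.1S libraries alone, at 0.38 ± 0.05 (edgeR adjusted p = 0.000836). With the length trend described below taken out it was 0.13.

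Centromere and kinetochore genes held the highest share of rises among the larger roles, 5 of 7, with the counts as deposited. With the length trend described below taken out, 4 of these 7 rose, and 5 of the 8 spindle proteins. CENPE, the kinesin that moves chromosomes to the metaphase plate, was 197, 233 and 217 CPM with DMSO and 186, 213 and 184 CPM with IT848 in U266, where groups overlapped. In MM.1S CENPE was 151, 167 and 178 CPM and 202, 210.3 and 204 CPM, without overlap. Its log2 fold change was 0.32 ± 0.07 in MM.1S (edgeR adjusted p = 0.00367) and -0.15 ± 0.07 in U266 (edgeR adjusted p = 0.258). NUF2, a subunit of the NDC80 complex that grips microtubules, was 121, 134 and 129 CPM and 124, 128 and 127 CPM in U266, and 86.3, 86.97 and 96.7 CPM and 102, 113 and 133 CPM in MM.1S. All treated MM.1S libraries of NUF2 lay above the controls, 0.37 ± 0.08 (edgeR adjusted p = 0.00222). Its partners NDC80 and SPC25 rose as well, by 0.25 ± 0.06 and 0.28 ± 0.10, although SPC25 was called under 9 of 21 alternatives.

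CENPA, the histone H3 variant that marks centromeres, was 62.1, 62.9 and 61.6 CPM with DMSO and 60.6, 65.2 and 61.9 CPM with IT848 in U266. In MM.1S it was 20.1, 21.2 and 21.5 CPM and 23.7, 26.7 and 25.1 CPM, lower than U266 throughout and higher after treatment, by 0.27 ± 0.05 (edgeR adjusted p = 0.00139). HJURP, the chaperone that loads CENPA, had 0.05 ± 0.04 and did not pass. CENPF had -0.10 ± 0.06 and did not pass either.

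In the chromosomal passenger complex, which corrects faulty attachments, INCENP, the scaffold, fell in MM.1S (-0.14 ± 0.05, called under 7 of 21 alternatives), and the kinase AURKB and borealin (CDCA8) had 0.09 ± 0.06 and 0.06 ± 0.04 without passing. BIRC5, survivin, was 246, 241 and 235 CPM with DMSO and 232, 235 and 244 CPM with IT848 in U266, and 160.3, 169.9 and 171 CPM and 164, 193 and 209.6 CPM in MM.1S. Its treated libraries overlapped the controls in both lines, and 0.18 ± 0.07 in MM.1S did not pass (edgeR adjusted p = 0.0563).

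Among the 7 kinesins, KIF20A, which works in the central spindle, and KIF4A, a chromosome-bound motor, rose in MM.1S by 0.21 ± 0.04 and 0.12 ± 0.04. KIF11, the motor that pushes spindle poles apart, fell by 0.12 ± 0.04, called under 6 of 21 alternatives. KIF14, KIF18A, KIF23 and KIF2C did not pass. KIF20A overlaps CDC23 in the genome.

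Of the 8 spindle proteins 4 rose in MM.1S. HMMR, the hyaluronan receptor that also binds spindle microtubules, was 229.6, 241 and 225 CPM with DMSO and 231, 245 and 246 CPM with IT848 in U266, where groups overlapped. In MM.1S it was 176, 188 and 199 CPM and 237, 260.5 and 299 CPM, a rise of 0.50 ± 0.07 without overlap (edgeR adjusted p = 7.32e-05). Its antisense partner HMMR-AS1 rose too in MM.1S, from 10.5 ± 0.915 to 15.99 ± 2.27 CPM (SD, n = 3), 0.61 ± 0.09, and without strand information the reads of the pair cannot be told apart. DLGAP5, NUSAP1 and PRC1, a spindle assembly factor, a microtubule binder and the bundler of the central spindle, rose by 0.25 ± 0.08, 0.16 ± 0.04 and 0.10 ± 0.04, the last called under 13 of 21 alternatives.

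TPX2, which activates AURKA on microtubules, had -0.03 ± 0.04 in MM.1S and did not pass. ASPM, a pole protein, was 152, 175 and 166 CPM with DMSO and 136, 167 and 149 CPM with IT848 in U266. In MM.1S ASPM was 399, 391 and 417 CPM and 449.6, 445 and 386 CPM, with overlap in both lines and 0.08 ± 0.08 in MM.1S. CKAP2, which stabilises spindle microtubules, was 144, 159.8 and 148 CPM and 137, 141 and 152 CPM in U266, and 311, 315 and 345 CPM and 300.2, 318 and 322 CPM in MM.1S. GTSE1, a microtubule regulator of G2 and S phase, was 24.9, 24.03 and 23.99 CPM and 24.2, 23.6 and 24.1 CPM in U266, and 63.2, 62.2 and 60.96 CPM and 62.7, 64.3 and 60.9 CPM in MM.1S. For CKAP2 and GTSE1 treated and control libraries overlapped in each line, while the levels of the lines were far apart.

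The cytokinesis genes ECT2, ANLN and RACGAP1, which set up and close the cleavage furrow, had MM.1S values from -0.01 ± 0.04 for RACGAP1 to 0.06 ± 0.06 for ECT2, and none passed in either line.

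Chromosome structure held the largest fall. MKI67, the Ki-67 protein that coats mitotic chromosomes and serves as the standard stain for proliferation, was 691, 723 and 713 CPM with DMSO and 630.3, 638 and 641 CPM with IT848 in U266. In MM.1S it was 1563, 1478 and 1493 CPM and 1337, 1169 and 1012 CPM. Treated libraries were below controls in both lines, with -0.37 ± 0.07 in MM.1S (edgeR adjusted p = 0.0012) and -0.16 ± 0.07 in U266, which did not pass (edgeR adjusted p = 0.231). TOP2A, topoisomerase II alpha, was 274, 290.5 and 272 CPM and 265, 284 and 274 CPM in U266, and 294, 302 and 303 CPM and 289, 302 and 299.5 CPM in MM.1S. Its groups overlapped in both lines, with -0.01 ± 0.04 in MM.1S. The condensin genes SMC4 and NCAPG went opposite ways, -0.14 ± 0.04 and 0.20 ± 0.05.

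Transcript length moved with these values. The 26 shorter members (below the median of 3127 bases) held 17 rises (65.4%) and 0 falls in MM.1S, with a median of 0.24. The 26 longer ones held 6 rises (23.1%) and 5 falls (19.2%), with a median of 0.01. Of all genes, whatever their length, 18.7% were higher and 19.6% lower, and shares by length were not taken. CKS2 is the shortest, at 613 bases, and MKI67 the longest, at 12495 bases. A shift of this kind ran across all genes. In 20 bins of length their median in MM.1S was 0.17 at 874.5 bases and -0.18 at 9930 bases, and 0 in the shortest bin, at 341 bases. Each library's deviation from the mean level in MM.1S was set against length over 9377 genes, and Spearman's rho was 0.168 to 0.451 for DMSO and -0.484 to 0.0285 for IT848. These are descriptions across genes, which are not independent replicates. With this trend taken out, 22 members were higher and 2 lower in MM.1S, where 3165 and 3195 of all 16782 genes were. Of the rises 20 were called both ways. CDK1, CKS2 and SPC25 dropped out, and ASPM and KIF14 came in, at 0.28 and 0.18. CCNB1, HMMR and CENPE then stood at 0.50, 0.52 and 0.48. CCNB2 stood at 0.27, CKS1B at 0.23 and PTTG1 at 0.14, smaller than with the counts as deposited. The falls of MKI67 and CDC25B were -0.15 each, against -0.37 and -0.19 before, and those of INCENP, KIF11 and SMC4 were no longer called.

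**Figure D4:**
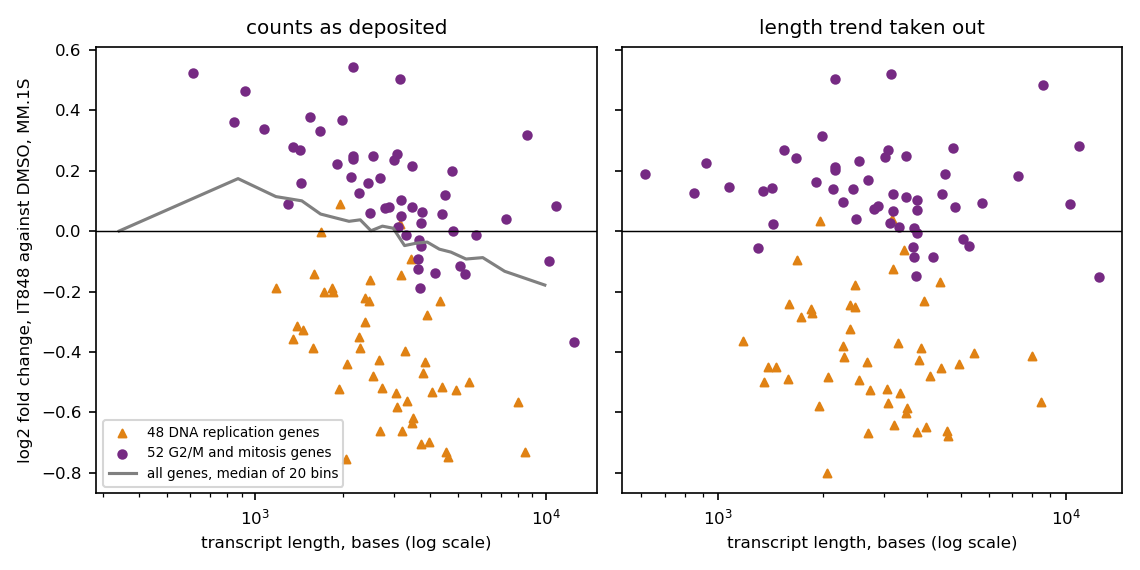
Log2 fold change in MM.1S, IT848 against DMSO (y axis), against transcript length in bases (x axis, log scale), for the 52 G2/M and mitosis genes (purple points) and 48 DNA replication genes (orange triangles), with the median of all genes in 20 bins of length (grey line, left panel). Left, with the counts as deposited, the 26 shorter members have a median of 0.24 and the 26 longer ones 0.01. Right, with the length trend taken out, CCNB1, HMMR and CENPE stand at 0.50, 0.52 and 0.48. Of the 48 replication genes 46 lie below 0 on the left.

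The responses of both lines were compared directly, as the MM.1S log2 fold change minus that of U266. This comparison shares all its libraries with those above, so it adds no separate evidence on either line. It called 17.4% of all genes, 8.49% as higher and 8.94% as lower in MM.1S, and 13 of 52 members (25%), all with the higher response in MM.1S. The median over the 52 was 0.16, against -0.02 over all genes. The largest were CCNB1 at 0.51 ± 0.10 (edgeR adjusted p = 0.00385), CENPE at 0.47 ± 0.10, HMMR at 0.45 ± 0.10, PTTG1 at 0.42 ± 0.10, NUF2 at 0.39 ± 0.11 and CCNB2 at 0.36 ± 0.08 (edgeR adjusted p = 0.00751). For CENPE and PTTG1 the U266 values were below 0 and the MM.1S values above. For the other 4 the U266 values lay between -0.02 and 0.05. CKS1B and CKS2 had differences of 0.21 ± 0.15 and 0.26 ± 0.21 that did not pass, and MKI67 had -0.21 ± 0.10, which did not pass either. CCNB1, CENPE, KIF20A and HMMR were called under each of the 20 alternatives that this comparison allows. Without both libraries holding reads of the other line, 877 of 16927 genes were higher and 835 lower, against 1424 and 1500 of 16782 before. The count of members was then 5, with UBE2C beside those 4. Leaving out 1 library moved it to 7 (MM.1S DMSO replicate 1), 8 (U266 DMSO replicate 2, U266 IT848 replicate 1, MM.1S DMSO replicate 2 or MM.1S IT848 replicate 2) or 23 (MM.1S IT848 replicate 1, with MKI67 as the 1 lower response), and the other 6 libraries gave 9 to 12. The 9 without U266 DMSO replicate 3 include INCENP as lower. Calls over all genes moved as well. Without MM.1S DMSO replicate 1, 1090 of 17062 genes were higher and 1118 lower, and without MM.1S IT848 replicate 1, 2086 and 1784 of 17075.

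The lines differed at rest in nearly all of these genes. With DMSO alone, 19 members were higher and 27 lower in MM.1S than in U266, where 40.6% and 42.1% of all genes were, so the share of members called (88.5%) was near the background of 82.6%. Without both libraries holding reads of the other line, 17 members were higher and 25 lower, where 6586 and 6934 of 16927 genes were. All 4 genes of chromosome structure were higher in MM.1S, although TOP2A was at 0.10 ± 0.04 and turned to -0.01 without the length trend, and 5 of 7 genes of centromere and kinetochore and 6 of 9 of mitotic entry were lower. GTSE1, ASPM, CKAP2 and MKI67 were higher in MM.1S by 1.35 ± 0.04, 1.29 ± 0.08, 1.10 ± 0.05 and 1.09 ± 0.07 on the log2 scale (edgeR adjusted p = 3.27e-09 for MKI67). CENPA was lower in MM.1S, at -1.57 ± 0.05 (edgeR adjusted p = 6.16e-13). The DMSO values given above show these gaps library by library. CCNB1, CDK1, PLK1, AURKA and BIRC5 were lower in MM.1S (-0.31 ± 0.07, -0.25 ± 0.08, -0.28 ± 0.04, -0.54 ± 0.05 and -0.53 ± 0.07), and FOXM1 was higher (0.61 ± 0.05). This comparison shares the DMSO libraries with the responses above.

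UBE2C set the lines apart far more than any other member. It was 5.26 ± 0.472 CPM in U266 and 279.8 ± 16.2 CPM in MM.1S with DMSO (SD, n = 3), 53.2-fold higher in MM.1S (5.74 ± 0.25 on the log2 scale, edgeR adjusted p = 6.91e-10). The 8 tested genes next to it, looked at after this value was seen, differed far less between the lines, although 5 of them were called: SNX21 at -0.64 ± 0.10, DBNDD2 at -0.57 ± 0.14, ZSWIM3 at -0.47 ± 0.08, ACOT8 at -0.22 ± 0.08 and DNTTIP1 at 0.28 ± 0.08 on the log2 scale. DNTTIP1 was 10.1 ± 0.606 and 12.3 ± 1.04 CPM in U266 and MM.1S, SNX21 was 12.96 ± 2.06 and 8.30 ± 0.736 CPM, ACOT8 was 9.56 ± 0.943 and 8.20 ± 0.114 CPM, and PIGT was 562 ± 21.9 and 559 ± 27.6 CPM. UBE2S, the E2 enzyme that extends the chains UBE2C starts, was 90.8 ± 1.75 CPM in U266 and 72.6 ± 5.11 CPM in MM.1S.

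**Figure D5:**
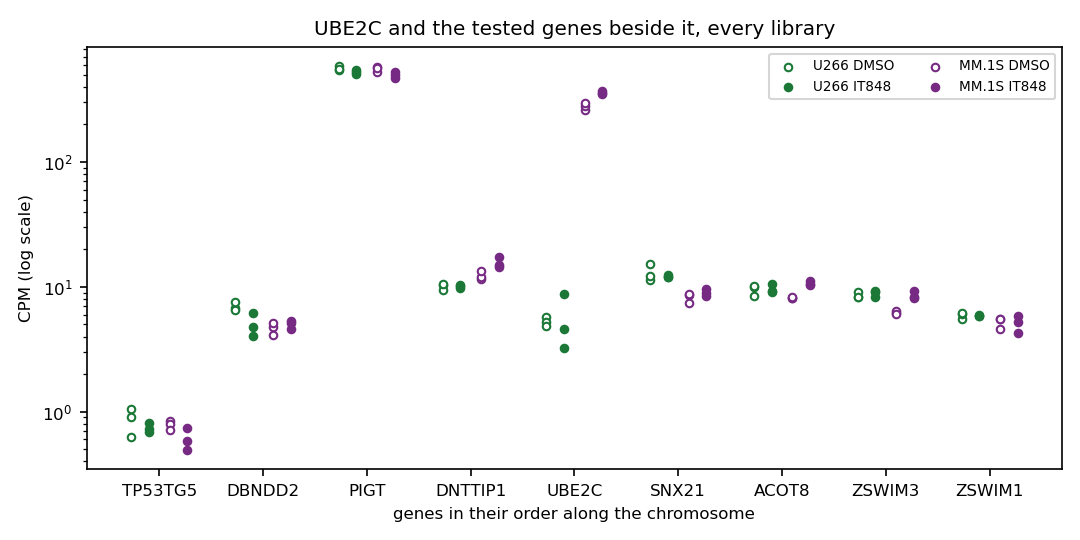
Level in CPM (y axis, log scale) of UBE2C and the tested genes beside it, in their order along the chromosome, in every library (U266 green, MM.1S purple, open for DMSO, filled for IT848). UBE2C lies between 3.21 and 8.75 CPM in U266 and above 263 CPM in MM.1S, while each neighbour has its points of both lines within a small part of the scale.

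Levels of different genes can be compared per transcript length, with the authors' TPM (counts per length, scaled to the same total in each library) of the most counted transcript of each gene. In U266 with DMSO the highest members were CKS2 at 203 ± 11.4, SMC4 at 166 ± 5.33, CKS1B at 139 ± 1.73 and NUSAP1 at 136 ± 4.47 TPM (SD, n = 3), and the last 2 do not differ beyond their spread. The lowest were UBE2C at 1.74 ± 0.146, KIF14 at 8.91 ± 0.375 and CDC25C at 9.41 ± 0.511 TPM. In MM.1S with DMSO the order began with SMC4 at 261 ± 5.93, CKS2 at 155 ± 14.6 and MKI67 at 141 ± 6.86 TPM, where CKS2 and MKI67 do not differ beyond their spread, and ended with KIF18A at 11.9 ± 0.590 and CDC25C at 9.24 ± 0.104 TPM. UBE2C was the last of 52 in U266 and number 9 in MM.1S, at 98.6 ± 3.47 TPM. With IT848 MKI67 in MM.1S stood at 101 ± 19.1 TPM and CCNB1 at 105 ± 8.66 TPM, up from 78.4 ± 2.63 TPM.

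The wider machinery of division, 91 other mitosis genes, had 13 higher (14.3%) and 32 lower (35.2%) in MM.1S, with a median of -0.05, where 18.7% and 19.6% of all genes were. The largest among them were ANAPC1, the scaffold of the anaphase-promoting complex, which went from 72.3, 70.98 and 74.2 CPM to 53.5, 51.2 and 49.1 CPM (-0.50 ± 0.05), PKMYT1, an inhibitory kinase of CDK1, from 179, 177 and 174 CPM to 126, 131 and 121 CPM (-0.49 ± 0.05), and CDC25A, from 62.2, 62.6 and 60.5 CPM to 45.4, 44.4 and 44.9 CPM (-0.46 ± 0.04). The groups of these 3 did not overlap. PKMYT1, CDC25A and WEE1, the other inhibitory kinase of CDK1, also had the largest differences between the responses of the lines, -0.61 ± 0.07, -0.49 ± 0.06 and -0.47 ± 0.07, each lower in MM.1S. In U266, where 4.98% of all genes were lower, 0 were higher and 3 lower (3.3%): TUBG1, gamma-tubulin, at -0.36 ± 0.04, ANAPC5 at -0.23 ± 0.05 and CLASP2 at -0.16 ± 0.04. Under DMSO the largest called differences between the lines were -2.45 ± 0.41 for KIFC1, 1.75 ± 0.25 for CCNB3 and 1.73 ± 0.04 for NCAPD3, a condensin II subunit. KIFC1, a kinesin, was 0.489, 0.427 and 0.607 CPM in U266 and 0.0282, 0.119 and 0.141 CPM in MM.1S, and CCNB3, cyclin B3, was 0.344, 0.345 and 0.207 and 0.859, 1.11 and 1.05 CPM, where 3 counts correspond to 0.0415 to 0.0593 CPM.

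Regulators of mitotic transcription fell in MM.1S for 15 of 26 (57.7%, against 19.6% of all genes) and rose for 2 (7.69%, against 18.7%), with a median of -0.16. E2F8 went from 83.4, 77.8 and 81.7 CPM to 55.1, 48.5 and 45.3 CPM (-0.71 ± 0.06) and E2F2 from 104, 101 and 101 CPM to 63.5, 66.7 and 61.98 CPM (-0.67 ± 0.05), with 0.06 ± 0.06 and -0.08 ± 0.05 in U266. E2F1 had -0.66 ± 0.06 in MM.1S and -0.14 ± 0.06 in U266. CDKN1A, the CDK inhibitor p21, was the only regulator called in U266, from 98.4, 91.7 and 93.6 CPM to 107, 109 and 102 CPM (0.17 ± 0.04), and it fell in MM.1S (-0.16 ± 0.04). CDKN2C, the inhibitor p18, was at 149 ± 1.29 CPM in U266 with DMSO, whereas MM.1S libraries held 3, 22 and 13 counts with DMSO and 5, 1 and 0 counts with IT848. The 22 counts were in the library that held U266 reads, the MM.1S groups overlapped, and its call as lower in MM.1S ended without that library (edgeR adjusted p = 0.118), so no fold is given. RB1 was 5.05, 5.04 and 4.93 CPM in U266 and 29.3, 27.9 and 28.1 CPM in MM.1S with DMSO, 2.5 ± 0.06 on the log2 scale. E2F7 was 11.3, 12.7 and 11.99 CPM and 53.9, 51.4 and 52.5 CPM, 2.13 ± 0.06.

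DNA replication genes of G1/S, listed for comparison, fell for 42 of 48 in MM.1S (87.5%, against 19.6% of all genes) and rose for 0, with a median of -0.43 and, without the length trend, -0.44. E2F1 and E2F8 are in this list and in that of the regulators above, so the lists are not separate. In U266, 3 of the 48 rose and 2 fell (median -0.02), or 10.4% called against 9.01% of all genes. The 52 G2/M and mitosis genes had 0.11 and 0.12 by the same measures in MM.1S and -0.02 in U266.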

How the data were processed

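The submitters' processing notes name the build hg19 and the tools STAR 2.5.2b, Trimmomatic 0.36, bcl2fastq and Subread 1.5.2 with featureCounts. Their annotation, strand setting and handling of multiply aligned reads were not given in the sources used here. The deposited tables list 51780 transcripts with 3 values. The count gives reads assigned by the authors to each transcript, per the file headers. The deposited FPKM, that count per length and library total, served only to recover transcript length. The TPM that the authors deposited, scaled to 1000000 per library, served to compare levels between genes.

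Counts were summed per gene symbol, as the choice of the genes states. Isoforms share reads (the least counted had a median of 0.982 of the most counted, over 6176 symbols), so the sums repeat reads. TMM-scaled CPM of these sums therefore compare libraries for 1 gene and not genes with each other. The model was fitted in edgeR 4.0.16 (R 4.3.3), quasi-likelihood with robust estimation, a mean per group, 12 libraries, a low-count filter with a minimum of 10 and Benjamini-Hochberg adjustment. DESeq2 1.42.0 was an alternative. On simulated data for the MM.1S comparison (16599 genes), 91% of 100 changes of 0.5 and 98% of 100 changes of 1 on the log2 scale were recovered, and 17 unchanged genes were called. The changed genes were drawn from the better expressed ones, and the simulated counts held no length trend. Changes below 0.5, as most members had, were not simulated, so these rates do not carry over to them. The length trend was a lowess curve (span 0.3) of each library's deviation on log length, taken out by offsets. Depth was 22887470 to 32913398 counts per library with 1 transcript per gene. Counting error was not small for UBE2C in U266, whose most counted transcript had 25 counts in its lowest library. The other members had 456 or more by that measure.

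Members, lists, tests and alternatives were chosen with earlier results of these data known. Named with values in every library were CCNB1, CDK1, CCNA2, PLK1, AURKA, FOXM1, BIRC5, TOP2A and MKI67, and in each comparison the 6 called members with the largest log2 fold change. Of the lists of other mitosis genes and regulators, the 3 largest called per comparison were named. 1 listed symbol, PIMREG, was not matched. Overlapping genes (for 9 members) were taken from RefSeq on GRCh38.p14, as were promoters.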

Additional observations from a re-analysis of the deposited data

Results flagged for a closer look

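For 13 genes the response to IT848 differed between the lines when the difference itself was tested with edgeR, in each case with the higher log2 fold change in MM.1S. Among genes of entry and kinases the difference was 0.51 for CCNB1, 0.36 for CCNB2, 0.25 for PLK1 and 0.27 for NEK2. For securin, PTTG1, it was 0.42. At the centromere and kinetochore it was 0.26 for CENPA, 0.47 for CENPE and 0.39 for NUF2. For the kinesins KIF20A and KIF4A it was 0.32 and 0.18, for the spindle proteins NUSAP1 and HMMR 0.19 and 0.45, and for the condensin subunit NCAPG 0.21. With the length trend taken out CENPA was no longer called, at 0.15, and the other 12 were. CCNB1, CENPE, KIF20A and HMMR alone were called under all 20 alternatives run for this comparison, and NUSAP1 under the fewest, 8.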

How the results depend on the processing

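Over 84 results for single genes and up to 21 alternatives each, 1649 values kept their direction and side of the threshold, 40 lost and 51 gained the call, and 3 turned. The log2 fold change of TOP2A in MM.1S was 0.093 with the length trend taken out and a replicate block, and TOP2A between the lines was -0.0066 without the length trend, also with the block (-0.00658). The cause was not tested. CDK1 in MM.1S lost its call under 8 alternatives, and NUF2 in the difference of responses under 8. In U266, where 0 members were called, the count was 1 with DESeq2's size factors, without the low-count filter, with the most counted transcript per gene and with the length trend taken out, 2 with DESeq2's test, 5 with U266 libraries alone and 0 to 4 when 1 library was left out. In MM.1S the count of 28 ran from 17 to 32 when 1 library was left out, that of the difference of responses (13) from 7 to 23, and that between the lines (46) from 42 to 48. Without both libraries with reads of the other line the difference had 5, where 877 of 16927 genes were higher and 835 lower. Calls over all genes moved with these settings too. Replicate numbers are shared between groups. Correlations of same-numbered deviations were 0.0599, 0.00481 and -0.00139 in U266 and 0.117, -0.0563 and 0.1 in MM.1S. Across different numbers, U266 values lay between -0.038 and 0.0341. Those of MM.1S were -0.148 and -0.127 between replicates 1 and 3, and between 0.0131 and 0.0407 otherwise. Spearman's rho with length fell with replicate number in MM.1S, as 0.451, 0.363 and 0.168 for DMSO and 0.0285, -0.342 and -0.484 for IT848. The main fit did not take the numbers as pairs, and these values do not settle if MM.1S libraries were paired. With the replicate block, U266 had 6 calls, where 968 of all 16782 genes were higher and 1187 lower. With the length trend also out it had 7, where 1127 and 1138 of all genes were. The difference had 21 with the block, where 2146 and 2242 of all genes were. Depth limits few values here apart from those of UBE2C in U266, whose most counted transcript had 25 counts in its lowest library.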

Other observations

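A choice of genes of the anaphase-promoting complex and its partners, not the whole complex, was looked at after the level of UBE2C was seen. They moved unevenly in MM.1S after IT848. The E2 enzyme UBE2S rose by 0.42 ± 0.06, the activator FZR1 (CDH1) by 0.29 ± 0.06 and the subunit ANAPC10 by 0.45 ± 0.08, and with the length trend taken out they stood at 0.26, 0.32 and 0.36. ANAPC11, the RING subunit, rose by 0.33 ± 0.10, but its groups overlapped, and it was 0.07 and not called without the length trend. ANAPC1, the scaffold, fell by 0.50 ± 0.05. CDC16, CDC23, CDC27, ANAPC5, ANAPC7 and UBE2D1 (0.07 ± 0.07) did not pass in MM.1S. Under DMSO CDC16 was 50.95 ± 1.06 CPM in U266 and 147 ± 3.94 CPM in MM.1S (SD, n = 3), and CDC27 was 408 ± 25.3 and 223 ± 6.75 CPM. Such differences were common, since 40.6% of all genes were called higher and 42.1% lower in MM.1S than in U266.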
